A study of Mus musculus with 8 samples.

Results

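The transcripts described here encode the enzymes that make cholesterol, the proteins that switch those enzymes on and off, and the proteins that take up, move, store and export sterols. Of 32 gene symbols named for this set, 31 had a row in the deposited table of 19055 genes, and Fdps is not analysed here. All 31 passed the filter on low values. The set holds 18 measured synthesis enzymes, 7 of the mevalonate steps and their geranylgeranyl branch and 11 of the steps after them. It also holds 4 genes for the transcription factor SREBP2 and its regulators, 5 genes of sterol uptake and transport, and 4 of storage and export. The measurements come from 8 mouse livers taken 48 hours after partial hepatectomy, when the remaining hepatocytes divide. The 5 URI(+/D)Hep livers carried a deletion of URI, a prefoldin-like protein, in hepatocytes, made with a Cre recombinase that tamoxifen activates and that serum albumin sequences drive, and their notation sets a wild-type allele beside the D allele. The 3 URI(+/+)Hep livers came from wild-type littermates. All mice were 8 to 9 weeks old, received tamoxifen for 1 week, and had the same surgery under the analgesic Buprex and isoflurane. Whether the controls carried the Cre is not stated, and no sham-operated or unoperated liver is analysed here. Each library is listed as its own sample with no statement of pooling, so the p-values measure the spread between these libraries.

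Cholesterol is built from acetyl-CoA by way of mevalonate, farnesyl diphosphate, squalene and lanosterol, mostly in the endoplasmic reticulum, and the liver is a main site of this synthesis. When sterols in that membrane are scarce, the escort protein SCAP carries SREBP2 to the Golgi, where it is cut and released to switch on the genes of synthesis and uptake. Insig proteins hold SCAP back when sterols are plentiful. Oxysterols then activate the LXR receptors, which switch on exporters such as Abca1, Abcg5 and Abcg8 and the ubiquitin ligase gene Mylip.

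Depth ranged from 4294494 to 4800694 recovered reads in URI(+/D)Hep libraries and from 3838674 to 4337966 in URI(+/+)Hep libraries. Values are read numbers scaled by the size factor of their library, called normalized reads here, from the 3′ ends of transcripts. Uri1, the targeted gene, did not separate the groups, at 384 ± 42.7 in URI(+/D)Hep livers and 384 ± 79.3 in URI(+/+)Hep livers (SD, n = 5 and 3, unadjusted p = 0.942 by limma). A 3′ tag outside the deleted part need not show the deletion, so every direction rests on the labels. Xist, from the inactive X chromosome, stood between 1217 and 2357 in URI(+/D)Hep livers, against 9.59, 2.95 and 1298 in URI(+/+)Hep 1 to 3. The summed Y-linked genes Uty, Kdm5d, Ddx3y and Eif2s3y stood at 3.54 in URI(+/D)Hep 1 and between 786 and 1002 in the other URI(+/D)Hep livers, against 1558, 1312 and 569 in URI(+/+)Hep 1 to 3. Thus 5 libraries, URI(+/D)Hep 2 to 5 and URI(+/+)Hep 3, held both kinds of transcript. They are called the mixed-transcript livers here, and results are also given for those alone. The labels give no sex, and whether each such library holds RNA of a single animal is not stated. A liver here therefore means a library, and n counts libraries. Mki67, a marker of dividing cells, was lowest in URI(+/D)Hep 5 at 49.5 and in URI(+/+)Hep 1 at 24.0. Although the labels call the cell type epithelial, all 10 hepatocyte, 12 macrophage, 8 endothelial and 8 stellate markers were detected, as in whole liver. Endothelial markers stood higher in URI(+/D)Hep livers, all 8 with a log2 fold change above 0 and with sums of 2193 to 2451 in URI(+/D)Hep livers and 1637 to 2094 in URI(+/+)Hep livers, and their part in the results was not tested. Hepatocyte marker sums overlapped, at 34720 to 41110 in URI(+/D)Hep livers and 34710 to 38990 in URI(+/+)Hep livers. In bulk tissue fewer cells of a type and less RNA per cell cannot be told apart.

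Every one of the 18 synthesis enzymes had a lower fitted level in URI(+/D)Hep livers than in URI(+/+)Hep livers, yet none of the 31 genes of the set passed the test. The median log2 fold change was -0.45 for the synthesis enzymes and -0.33 for all 31 genes, against 0.00 for all 13704 genes tested. Across the set 27 genes, or 87.1%, lay below 0, against 50.2% of all genes tested, and 4 lay above 0, against 49.8% of them. With limma on log2(value + 1) and Benjamini-Hochberg adjustment over all genes, 0 of the 31 were called at an adjusted p under 0.05, where 0.0146% of all genes were called lower and 0% higher. At an unadjusted limma p under 0.05 the set held 3 lower genes, 9.68% against 9.33% of all genes, and 2 higher ones, 6.45% against 8.35%. Count tests on the recovered reads gave 0 calls with edgeR, which counted the same 3 lower and 2 higher at an unadjusted p under 0.05, against 10.3% and 7.38% of all genes, and 1 higher call with DESeq2, for Mylip. For edgeR 0.0219% of all genes were called lower and 0% higher, and for DESeq2 4.1% were called lower and 2.57% higher of the 9171 genes with an adjusted p. The groups did not overlap for 2 genes lower in URI(+/D)Hep, 6.45% against 7.3% of all genes, and for 1 higher gene, 3.23% against 6.13%. By each of these counts of calls and of groups apart, the set stood near or below the whole table.

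The common sign of the synthesis enzymes depended on which livers were set against each other. In the 5 mixed-transcript livers, 6 of the 18 enzymes lay below 0 and 12 above, where 51.9% of all genes lay below 0. The median log2 fold change of the enzymes was 0.15. The enzymes below 0 there were Mvk, Idi1, Ggps1, Ebp, Sc5d and Dhcr7. That fit has 1 control, URI(+/+)Hep 3, assumed to vary like the other livers. It was the lowest control for the mean of these enzymes. With the Y-linked share of reads as a covariate 10 lay below 0 and 8 above, with a median of -0.10, where 51.4% of all genes lay below 0. Without URI(+/+)Hep 1 the enzymes split into 16 below and 2 above, with a median of -0.40, where 50.4% of all genes lay below 0. Both livers with almost no Xist were controls, and the liver with almost no Y-linked reads was URI(+/D)Hep 1.

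**Figure D1:**
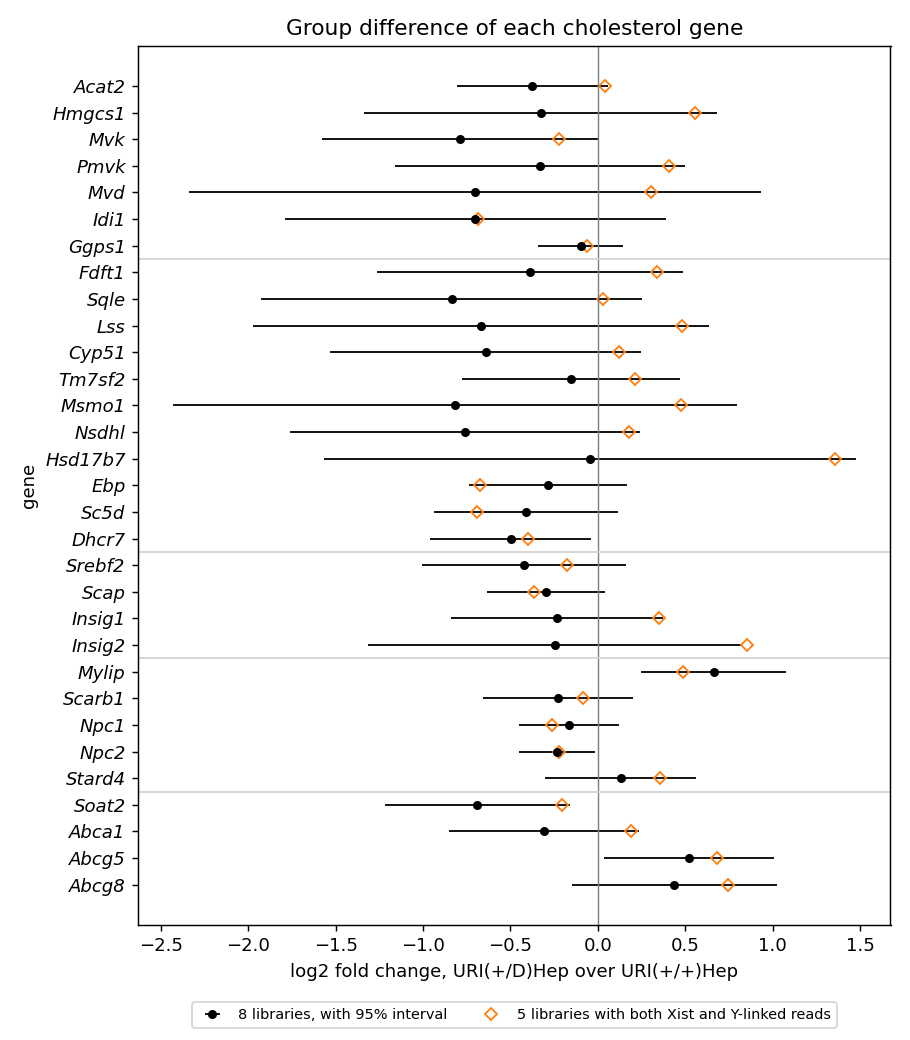
Log2 fold change, URI(+/D)Hep over URI(+/+)Hep, for each of the 31 genes, by role from the mevalonate steps at the top to storage and export at the bottom. Filled points are the limma fit of 8 libraries with its 95% interval, and open diamonds the fit of the 5 mixed-transcript livers. All 18 enzymes lie left of 0 in the first fit and 12 of them right of 0 in the second.

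Enzymes of the mevalonate steps spanned more among URI(+/D)Hep livers than they differed between the groups. Mvk, mevalonate kinase, had 60.1, 136, 190.4, 103 and 159 normalized reads in URI(+/D)Hep 1 to 5, against 278, 197 and 167 in URI(+/+)Hep 1 to 3. URI(+/D)Hep 1 stood below every other liver and URI(+/+)Hep 1 above every other, and URI(+/D)Hep 3 lay within the range of the controls (log2 fold change -0.79 ± 0.35 SE, with an adjusted p of 0.283 by limma). Acat2, the cytosolic thiolase that joins acetyl-CoA units, had 336, 460.2, 515, 335 and 416 normalized reads in URI(+/D)Hep 1 to 5, against 650.01, 543 and 415 in URI(+/+)Hep 1 to 3. The groups overlapped through URI(+/D)Hep 2, 3 and 5 (log2 fold change -0.37 ± 0.19 SE, with an adjusted p of 0.34 by limma). Reads of Acat2 are uncertain, since mouse has a close copy, Acat3.

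Idi1, the isopentenyl diphosphate isomerase, had 11.5, 29.6, 55.1, 14.1 and 39.6 normalized reads in URI(+/D)Hep 1 to 5, against 38.4, 38.4 and 50.4 in URI(+/+)Hep 1 to 3. URI(+/D)Hep 1 and 4 stood far below the other 6 livers, the lowest resting on 13 reads, while URI(+/D)Hep 3 was the highest of all (log2 fold change -0.70 ± 0.48 SE, with an adjusted p of 0.478 by limma). Mvd, which makes isopentenyl diphosphate, had 96.3, 585, 899, 156 and 735 normalized reads in URI(+/D)Hep 1 to 5, against 841, 584 and 401 in URI(+/+)Hep 1 to 3. Within the URI(+/D)Hep group alone Mvd spanned 9.33-fold, against 2.10-fold among the controls, and the 95% interval of its fold change ran from 0.20 to 1.91. Hmgcs1, a synthase that acts ahead of mevalonate, had 1455, 4215, 4822, 2011 and 4715 normalized reads in URI(+/D)Hep 1 to 5, against 5964, 3844 and 2531 in URI(+/+)Hep 1 to 3 (log2 fold change -0.33). Pmvk, phosphomevalonate kinase, spanned 2.60-fold in URI(+/D)Hep and 2.32-fold in URI(+/+)Hep livers, with a log2 fold change of -0.33. Ggps1, which draws farnesyl diphosphate off to geranylgeranyl diphosphate, was nearly level in all livers, between 137 and 163 in URI(+/D)Hep and between 156 and 167 in URI(+/+)Hep (log2 fold change -0.10).

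Enzymes of the steps from farnesyl diphosphate to cholesterol all had a log2 fold change below 0, and none passed the test. Dhcr7, the reductase that ends a late route to cholesterol, was the only enzyme whose groups did not overlap. It had 39.8, 46.3, 69.6, 64.6 and 55.4 normalized reads in URI(+/D)Hep 1 to 5, against 73.2, 79.8 and 77.2 in URI(+/+)Hep 1 to 3, and every URI(+/D)Hep liver lay below every control. Dhcr7 did not pass the test (log2 fold change -0.50 ± 0.20 SE, with an adjusted p of 0.25 by limma), and its fold change had a 95% interval of 0.51 to 0.97. Sqle, squalene epoxidase, had 149, 449, 676, 284 and 649 normalized reads in URI(+/D)Hep 1 to 5, against 1003, 676 and 476 in URI(+/+)Hep 1 to 3. URI(+/D)Hep 1, 2 and 4 stood below all controls, while URI(+/D)Hep 3 and 5 lay within their range (log2 fold change -0.84 ± 0.48 SE, with an adjusted p of 0.397 by limma). Nsdhl, a decarboxylase acting on sterol intermediates, had 106, 304, 396, 188 and 369.9 normalized reads in URI(+/D)Hep 1 to 5, against 614, 440.1 and 267 in URI(+/+)Hep 1 to 3, with the same order of livers within each group as Sqle (log2 fold change -0.76 ± 0.44 SE, with an adjusted p of 0.399 by limma).

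Msmo1, the methylsterol oxidase, had the widest span of these 11 enzymes among URI(+/D)Hep livers, at 203, 1187, 1679, 385 and 1539 normalized reads in URI(+/D)Hep 1 to 5, against 2329, 1340.1 and 748 in URI(+/+)Hep 1 to 3. It spanned 8.26-fold among URI(+/D)Hep livers and 3.11-fold among the controls, and averaged 999 ± 671 in URI(+/D)Hep livers and 1472 ± 799 in URI(+/+)Hep livers (SD, n = 5 and 3). The 95% interval of its fold change, 0.19 to 1.74, lay on both sides of 1. Fdft1, squalene synthase, Lss, lanosterol synthase, and Cyp51, lanosterol demethylase, spanned 2.93-, 5.33- and 3.23-fold among URI(+/D)Hep livers, against 2.27-, 3.51- and 2.02-fold among controls, with log2 fold changes of -0.39, -0.67 and -0.64. Tm7sf2, a sterol reductase, and Hsd17b7, a ketosteroid reductase of the pathway, were highest in URI(+/D)Hep 5, at 268 and 1137, and had log2 fold changes of -0.15 and -0.04. Hsd17b7 changed sign under 9 alternative settings, more than any other gene of the set, reaching 1.36 in the 5 mixed-transcript livers.

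The late enzymes Ebp, the sterol isomerase, and Sc5d, the sterol desaturase, did not follow the order of livers seen for Sqle and Msmo1. Ebp had 2147, 1734, 2236, 2557 and 1806 normalized reads in URI(+/D)Hep 1 to 5, against 1826, 2685 and 3278 in URI(+/+)Hep 1 to 3. URI(+/+)Hep 3 was its highest liver and URI(+/+)Hep 1 its lowest control, so that its controls ran in the reverse order to those of Msmo1. Sc5d had 1632, 1411, 2082, 2371 and 1223 normalized reads in URI(+/D)Hep 1 to 5, against 1775, 2334 and 2756 in URI(+/+)Hep 1 to 3, again highest in URI(+/+)Hep 3 and, among URI(+/D)Hep livers, in number 4 (log2 fold change -0.41 ± 0.23 SE, with an adjusted p of 0.387 by limma).

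**Figure D2:**
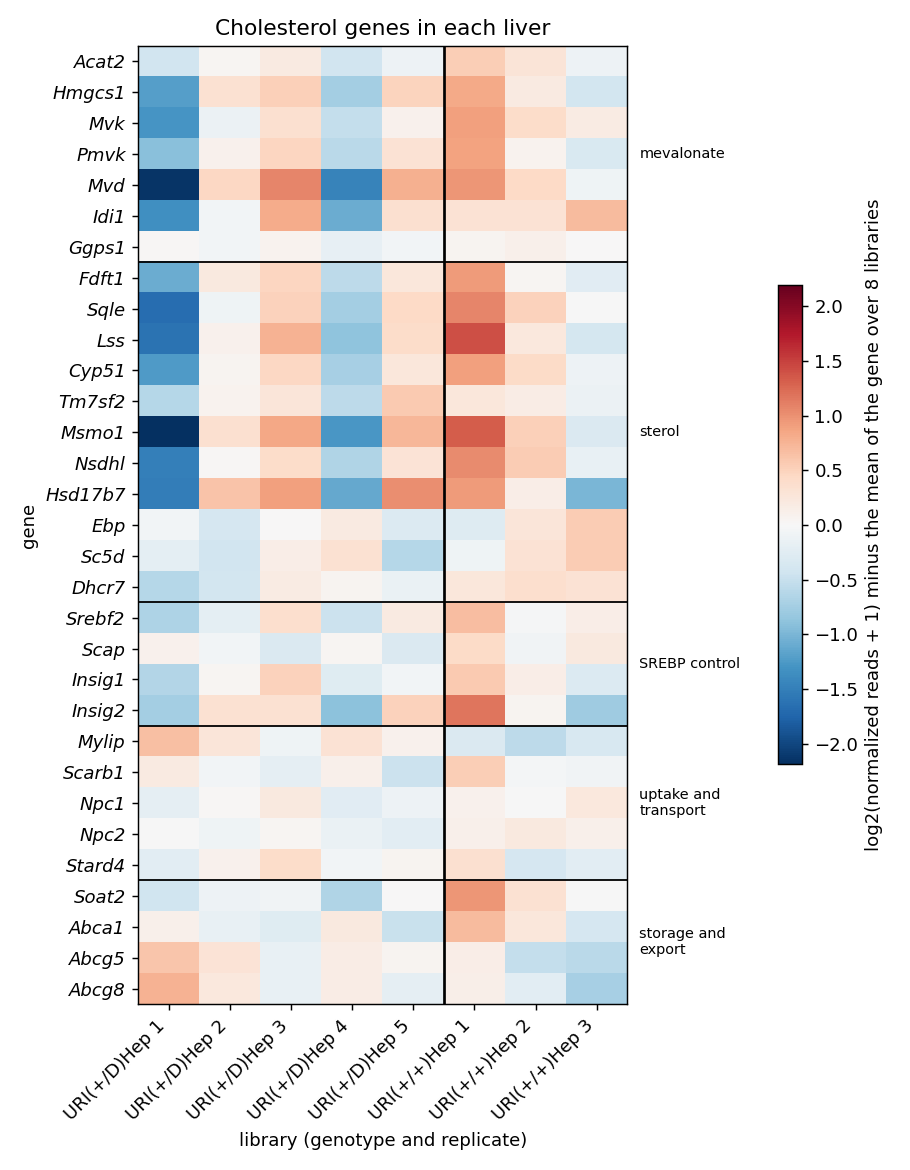
Each row is a gene and each column a liver, URI(+/D)Hep 1 to 5 left of the line and URI(+/+)Hep 1 to 3 right of it. Colour is log2(normalized reads + 1) minus the gene's mean over the 8 livers. The enzymes from Acat2 to Hsd17b7, other than Ggps1, are blue in URI(+/D)Hep 1 and 4, and Ebp and Sc5d do not follow them.

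Most synthesis enzymes shared an order of livers. For 14 of the 18, URI(+/D)Hep 1 and 4 were the lowest pair of the 5 URI(+/D)Hep livers, an order held by 19.2% of all genes tested. The full order 3, 5, 2, 4, 1 from the highest held for 11 of the 18, against 2.96% of all genes. In 10 of these the controls also stood in the order 1, 2, 3, against 1.34% of all genes. These orders were noticed in these values and are descriptions, and enzymes of 1 library share its RNA and scaling. The residual SD of the 18, on the log2 scale, had a median of 0.65, against 0.28 over all genes, and 8 of the 18 lay above the 90th percentile of all genes, led by Mvd at 1.22, Msmo1 at 1.20 and Hsd17b7 at 1.13.

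The mean log2 deviation of the 18 enzymes from their averages was -1.09, 0.05, 0.47, -0.61 and 0.26 in URI(+/D)Hep 1 to 5, against 0.68, 0.30 and -0.06 in URI(+/+)Hep 1 to 3. Together they took 0.19%, 0.362%, 0.452%, 0.256% and 0.4% of all normalized reads in URI(+/D)Hep 1 to 5, against 0.493%, 0.411% and 0.332% in URI(+/+)Hep 1 to 3. The highest URI(+/D)Hep liver thus exceeded the middle control by both measures. Mki67 stood at 469, 333, 268, 586 and 49.5 normalized reads in URI(+/D)Hep 1 to 5, against 24.0, 282 and 468 in URI(+/+)Hep 1 to 3. The 3 livers with the highest Mki67, URI(+/D)Hep 4 and 1 and URI(+/+)Hep 3, were also the 3 lowest for the enzymes, while URI(+/D)Hep 5 and URI(+/+)Hep 1, with the least Mki67 of their groups, were among the 4 highest for the enzymes. The sum of 6 neutrophil markers stood in the same order within each group. It was 269.6, 463, 868, 359.7 and 757 normalized reads in URI(+/D)Hep 1 to 5, against 1115, 1093 and 506 in URI(+/+)Hep 1 to 3. S100a8 was the largest part of that sum in every liver and the only one of these markers with the full order. S100a9, Csf3r, Cxcr2, Retnlg and Mmp8 each had another order among URI(+/D)Hep livers. All 6 of 6 neutrophil markers had a log2 fold change below 0, none was at 0 in all livers, and Csf3r and Mmp8 had the smallest p of the list. URI(+/D)Hep 1 and 4 were the lowest pair of their group for 5 of 6 cholangiocyte, 5 of 10 hepatocyte, 3 of 6 neutrophil, 3 of 8 stellate, 1 of 12 macrophage, 1 of 8 endothelial and 0 of 5 lymphocyte markers and for 0 of 8 cell cycle genes, against 19.2% of all genes. The part of dividing cells and of these cell types in the order of the livers was not tested.

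**Figure D3:**
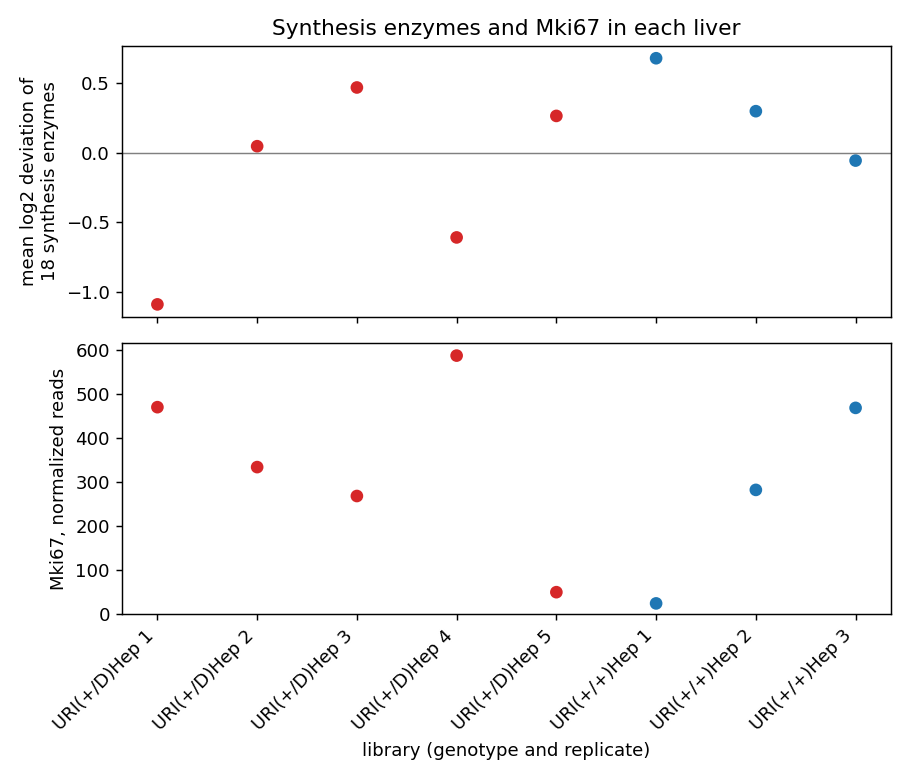
Upper panel, mean log2 deviation of the 18 synthesis enzymes from their averages over 8 livers. Lower panel, Mki67 in normalized reads. Red points are URI(+/D)Hep livers and blue points URI(+/+)Hep livers. URI(+/D)Hep 1, at -1.09, and 4, at -0.61, are low above and high below.

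Promoter sequence is shown for 4 enzymes to set those that swung together beside 1 that did not. RefSeq windows on GRCm38.p6, an earlier build than the GRCm39 named for the deposited values, from 250 bases before to 50 bases after an annotated start, matched 25 of the 31 genes by symbol. They were searched on both strands for TCACNCCAC, a form of the sterol regulatory element to which SREBP2 binds, and for CCAAT, the box bound by NF-Y, a known partner of SREBP2. CCAAT was found for 22 of the 25 genes, 88%, against 41.1% of 27025 genes in the table, and in 68.8% of 32 windows, since some genes have several, against 37.4% of 32851. TCACNCCAC was found for 1, Hmgcs1, or 4%, against 1.44% of those genes, and the motifs do not overlap there. The E-box CACGTG was found for 6, or 24%, against 8.09%. The windows below run 5′ to 3′ on the strand of the gene, with matches on either strand in capitals, TCACCCCAC once in Hmgcs1 and all others CCAAT or its reverse ATTGG.
Hmgcs1, chr13:119690101-119690400, forward strand: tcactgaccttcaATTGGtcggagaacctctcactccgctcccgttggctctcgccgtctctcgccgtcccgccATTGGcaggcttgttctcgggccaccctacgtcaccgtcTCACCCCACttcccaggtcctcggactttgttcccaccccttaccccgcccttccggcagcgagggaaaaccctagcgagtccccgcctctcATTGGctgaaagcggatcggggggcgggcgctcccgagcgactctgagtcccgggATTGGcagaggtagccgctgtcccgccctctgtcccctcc
Msmo1, chr8:64733529-64733828, reverse strand: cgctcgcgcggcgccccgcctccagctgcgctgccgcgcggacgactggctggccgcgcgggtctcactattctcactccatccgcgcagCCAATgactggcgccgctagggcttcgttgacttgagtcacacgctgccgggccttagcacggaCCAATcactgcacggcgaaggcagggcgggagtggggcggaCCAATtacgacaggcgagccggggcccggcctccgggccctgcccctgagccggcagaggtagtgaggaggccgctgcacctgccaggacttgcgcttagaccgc
Mvd, chr8:122443373-122443672, reverse strand: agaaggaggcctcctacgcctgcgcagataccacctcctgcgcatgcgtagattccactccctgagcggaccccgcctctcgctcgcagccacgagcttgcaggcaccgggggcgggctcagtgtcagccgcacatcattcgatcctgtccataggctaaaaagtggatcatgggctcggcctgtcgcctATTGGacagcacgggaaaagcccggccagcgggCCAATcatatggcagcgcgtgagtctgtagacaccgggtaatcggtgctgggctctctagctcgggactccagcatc
Ebp, chrX:8193463-8193762, reverse strand: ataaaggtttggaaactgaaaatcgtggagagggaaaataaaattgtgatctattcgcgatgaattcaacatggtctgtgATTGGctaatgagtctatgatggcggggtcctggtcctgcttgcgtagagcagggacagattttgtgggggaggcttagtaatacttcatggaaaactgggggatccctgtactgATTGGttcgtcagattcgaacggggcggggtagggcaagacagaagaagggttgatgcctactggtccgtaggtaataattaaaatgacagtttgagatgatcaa
Hmgcs1 held 4 CCAAT boxes, Msmo1 3, and Mvd and Ebp 2 each. The box was thus present in the enzymes with the widest swings and also in Ebp, whose livers stood in another order. Of the 12 matched enzymes lowest in URI(+/D)Hep 1 and 4, 11 held a CCAAT box. Acat2 was the exception. The enzymes for which these livers were not the lowest pair, Ggps1, Ebp, Sc5d and Dhcr7, also each held the box in at least 1 window. A match is a description of letters and not of binding.

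SREBP2 and its regulators were all lower on average in URI(+/D)Hep livers, none passed the test, and the direction of both Insig genes depended on the livers compared. Srebf2, which encodes SREBP2 itself, had 266, 366, 546, 306 and 485 normalized reads in URI(+/D)Hep 1 to 5, against 679.99, 415 and 469 in URI(+/+)Hep 1 to 3. It followed the order of the enzymes in URI(+/D)Hep livers, with URI(+/D)Hep 1 lowest of all 8 (log2 fold change -0.42 ± 0.26 SE, with an adjusted p of 0.422 by limma). Scap, the escort, had 446, 405, 337, 432 and 335 normalized reads in URI(+/D)Hep 1 to 5, against 560.1, 399.8 and 484 in URI(+/+)Hep 1 to 3, and URI(+/+)Hep 2 lay within the range of the URI(+/D)Hep livers (log2 fold change -0.30 ± 0.15 SE, with an adjusted p of 0.337 by limma). Insig1 is itself an SREBP2 target and had 115, 185, 255, 149.9 and 174 normalized reads in URI(+/D)Hep 1 to 5, against 269.8, 201 and 147 in URI(+/+)Hep 1 to 3. Insig1 was highest in URI(+/D)Hep 3 and URI(+/+)Hep 1 of their groups, as was Msmo1, and its log2 fold change was -0.23 (SE 0.27). It turned to 0.35 in the 5 mixed-transcript livers and to 0.13 with the Y-linked covariate.

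Insig2, whose liver transcript is known to respond to fasting and insulin, swung more than Insig1. It had 1233, 2622, 2626, 1113 and 2960.1 normalized reads in URI(+/D)Hep 1 to 5, against 4694, 2169 and 1206 in URI(+/+)Hep 1 to 3. URI(+/+)Hep 1 stood 3.89-fold above URI(+/+)Hep 3, so that the controls alone spanned more than the URI(+/D)Hep livers at 2.66-fold. The log2 fold change of -0.24 (± 0.47 SE, with an adjusted p of 0.826 by limma) turned to 0.27 without URI(+/+)Hep 1, to 0.86 in the 5 mixed-transcript livers and to 0.32 with the Y-linked covariate.

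Among genes of uptake and transport, Mylip had the smallest p of the whole set and stood higher in every URI(+/D)Hep liver. Mylip encodes a ubiquitin ligase that marks lipoprotein receptors for breakdown and is an LXR target. It had 141, 106, 83.1, 111 and 94.9 normalized reads in URI(+/D)Hep 1 to 5, against 70.8, 59.1 and 69.7 in URI(+/+)Hep 1 to 3. The highest control lay below the lowest URI(+/D)Hep liver, with means of 107 ± 21.9 in URI(+/D)Hep livers and 66.5 ± 6.47 in URI(+/+)Hep livers (SD, n = 5 and 3). The fold change was 1.58 with a 95% interval of 1.19 to 2.11 (log2 fold change 0.66 ± 0.18 SE, with an adjusted p of 0.135 by limma), and DESeq2 on the recovered reads called it, with an adjusted p of 0.0428, while edgeR did not, at 0.138. Without URI(+/D)Hep 5 DESeq2 no longer called it, at 0.074, and the adjusted p ranged from 0.0428 to 0.616 over all alternatives. In the 5 mixed-transcript livers its log2 fold change was 0.49 (± 0.23 SE, with an adjusted p of 0.442 by limma).

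Npc2, the soluble lysosomal protein that hands cholesterol to Npc1, had 703, 662, 723, 637 and 598 normalized reads in URI(+/D)Hep 1 to 5, against 759, 821 and 761 in URI(+/+)Hep 1 to 3. All URI(+/D)Hep livers lay below all controls by a small margin, with means of 665 in URI(+/D)Hep livers and 780.3 in URI(+/+)Hep livers (log2 fold change -0.23 ± 0.10 SE, with an adjusted p of 0.25 by limma). Npc1, the membrane partner, had 380.1, 441, 504, 365 and 402 normalized reads in URI(+/D)Hep 1 to 5, against 462, 429 and 509.6 in URI(+/+)Hep 1 to 3, with overlapping groups (log2 fold change -0.16 ± 0.13 SE, with an adjusted p of 0.529 by limma). The pair varied little among livers, with residual SDs of 0.10 for Npc2 and 0.17 for Npc1 on the log2 scale. Scarb1, the receptor for high-density lipoprotein, had 815, 685, 619, 763 and 510.3 normalized reads in URI(+/D)Hep 1 to 5, against 1030.2, 689 and 676 in URI(+/+)Hep 1 to 3, where URI(+/+)Hep 1 stood alone above the rest (log2 fold change -0.23 ± 0.19 SE, with an adjusted p of 0.571 by limma). Stard4, a cytosolic sterol carrier, ranged from 413 to 644 in URI(+/D)Hep and from 377 to 624 in URI(+/+)Hep livers, with a log2 fold change of 0.13.

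Storage and export genes split by direction. Soat2, which esterifies cholesterol in hepatocytes for storage and secretion, had 159.99, 200, 204, 137 and 217 normalized reads in URI(+/D)Hep 1 to 5, against 423, 274 and 215 in URI(+/+)Hep 1 to 3. URI(+/D)Hep 5 exceeded URI(+/+)Hep 3 by a narrow margin and the other URI(+/D)Hep livers lay below all controls (log2 fold change -0.69 ± 0.23 SE, with an adjusted p of 0.189 by limma), and its fold change had a 95% interval of 0.43 to 0.89. The log2 fold change of Soat2 was -0.20 in the 5 mixed-transcript livers.

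Abcg5 and Abcg8 encode the paired subunits of a transporter that sends sterols into bile, and they start close together on opposite strands, so that a RefSeq window of each shares 209 bases with the other. Abcg5 had 295, 237, 173, 216 and 202 normalized reads in URI(+/D)Hep 1 to 5, against 212, 134 and 128 in URI(+/+)Hep 1 to 3, and Abcg8 had 220.1, 152, 115, 145 and 113 normalized reads in URI(+/D)Hep 1 to 5, against 142, 110.3 and 77.2 in URI(+/+)Hep 1 to 3. For both, URI(+/D)Hep 1, the liver lowest for the synthesis enzymes, was the highest of all 8 and URI(+/+)Hep 3 the lowest. Neither passed the test, Abcg5 having a log2 fold change of 0.52 (± 0.21 SE, with an adjusted p of 0.252 by limma) and Abcg8 one of 0.44 (± 0.26 SE, with an adjusted p of 0.409 by limma). In the 5 mixed-transcript livers the values were 0.68 and 0.74 (SE 0.21 and 0.24). Abca1, which loads cholesterol onto apolipoprotein A1, had 748, 616, 576, 804 and 489.6 normalized reads in URI(+/D)Hep 1 to 5, against 1113, 818 and 536 in URI(+/+)Hep 1 to 3. URI(+/+)Hep 1 stood above the rest and the groups overlapped (log2 fold change -0.31 ± 0.24 SE, with an adjusted p of 0.535 by limma). Its log2 fold change was 0.19 in the 5 mixed-transcript livers and 0.036 without both URI(+/D)Hep 5 and URI(+/+)Hep 1, so its direction depended on the livers compared.

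**Figure D4:**
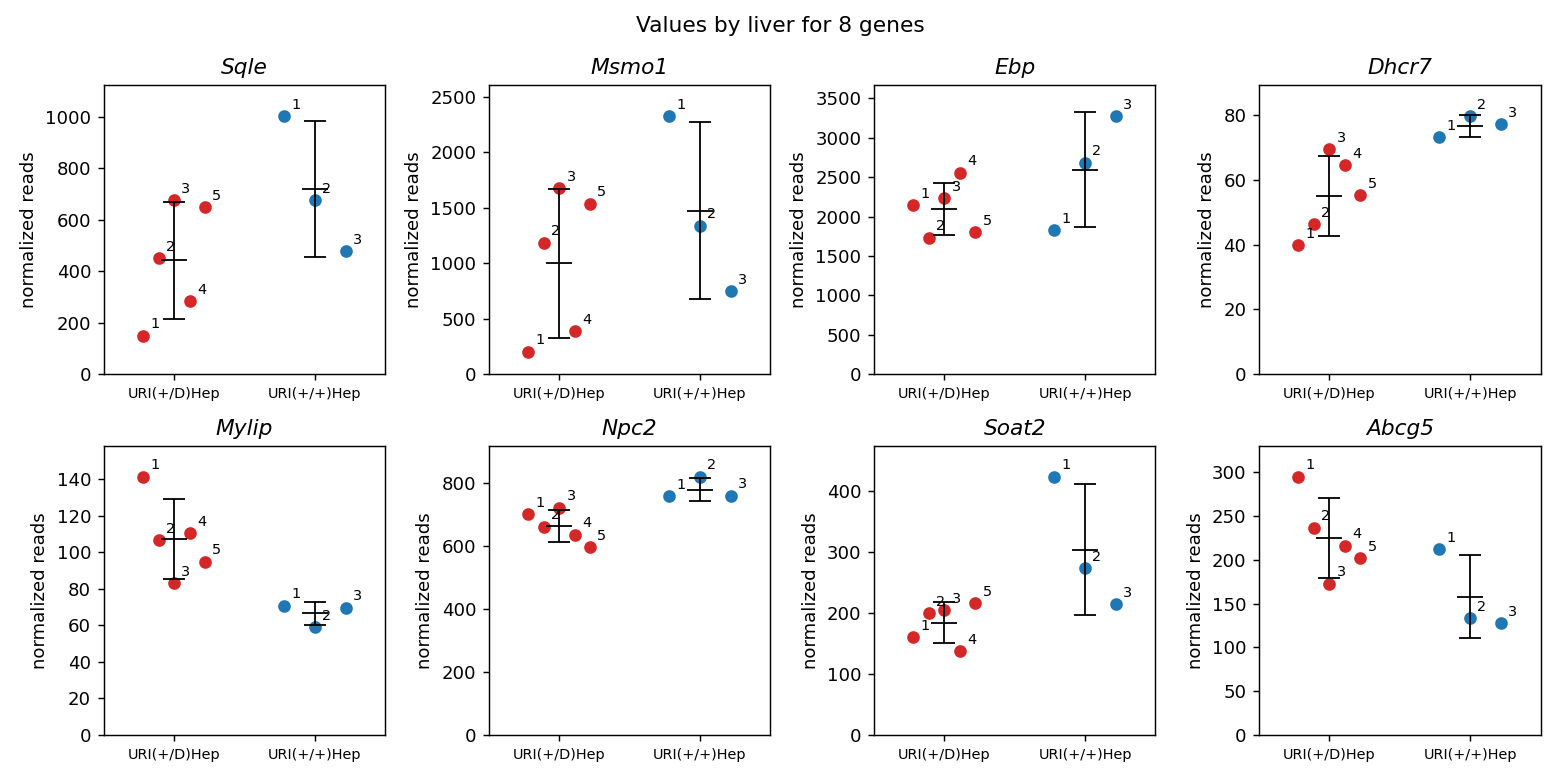
Normalized reads of 8 genes in each liver, with URI(+/D)Hep in red on the left and URI(+/+)Hep in blue on the right of each panel. Numbers are replicates, and bars show mean ± SD (n = 5 and 3). The groups do not overlap for Dhcr7, Mylip and Npc2, and for Msmo1 the URI(+/D)Hep livers span 203 to 1679, a range that holds 2 of the 3 controls.

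Other genes of the pathway were read from lists fixed with earlier results of these data known. Of 22 measured further SREBP pathway and sterol genes, 16 lay below 0, where 50.2% of all genes did, and 6 above, their median log2 fold change being -0.17, and 0 passed the limma test, with 3 lower and 0 higher at an unadjusted p under 0.05, against 9.33% and 8.35% of all genes. The genes with the smallest p were Tmem97, an SREBP target that binds sterols, at 442, 461, 529, 502 and 342 normalized reads in URI(+/D)Hep 1 to 5, against 539.7, 656 and 799 in URI(+/+)Hep 1 to 3, and Nus1, a subunit of the dolichol-making transferase, at 358, 329, 328, 391 and 492 normalized reads in URI(+/D)Hep 1 to 5, against 552, 450 and 469.9 in URI(+/+)Hep 1 to 3. The groups did not overlap for Tmem97 and did for Nus1, with log2 fold changes of -0.54 (± 0.17 SE, with an adjusted p of 0.166 by limma) and -0.38 (± 0.15 SE, with an adjusted p of 0.241 by limma). Erg28, a scaffold of the sterol demethylation enzymes that was picked after its values were seen, had 573, 789, 1115, 553 and 958 normalized reads in URI(+/D)Hep 1 to 5, against 1434, 1070 and 1044 in URI(+/+)Hep 1 to 3, lowest in URI(+/D)Hep 4 and 1. Of the 22 genes 4 had these livers as the lowest pair of their group, against 19.2% of all genes.

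Of 21 further sterol transport and LXR genes, 19 were tested, with 9 below 0 and 10 above and a median of 0.01. Of all genes 50.2% lay below 0. No gene of that list passed. At an unadjusted limma p under 0.05, 1 was lower and 1 higher, against 9.33% and 8.35% of all genes. Scarb2, a lysosomal membrane protein, had 1543, 1556, 1502, 1573 and 1637 normalized reads in URI(+/D)Hep 1 to 5, against 2186, 2114 and 1970 in URI(+/+)Hep 1 to 3. Its groups stood well apart, with a log2 fold change of -0.42 (± 0.08 SE, with an adjusted p of 0.115 by limma). Of all genes 7.3% were lower with groups that did not overlap. Abcg1, an LXR-driven exporter, stood between 82.2 and 106 in URI(+/D)Hep livers, against 51.6 to 88.0 in URI(+/+)Hep livers, with overlapping groups and a log2 fold change of 0.42 (± 0.19 SE, with an adjusted p of 0.282 by limma). In the fatty acid arm of SREBP control, 5 of 12 genes lay below 0 and 7 above, with a median of 0.14 and 0 passing the limma test. At an unadjusted limma p under 0.05 that arm had 0 lower and 1 higher gene, against 9.33% and 8.35% of all genes. The higher gene was Scd1, the stearoyl-CoA desaturase. It had 1985, 2042, 2466, 2382 and 3572 normalized reads in URI(+/D)Hep 1 to 5, against 1607, 1847 and 1647 in URI(+/+)Hep 1 to 3. Its groups did not overlap, as for 6.13% of all genes in that direction. The next smallest p was that of Thrsp, a lipogenic nuclear protein, at 327 ± 216 in URI(+/D)Hep livers and 575 ± 259 in URI(+/+)Hep livers (SD, n = 5 and 3). In the arm 1 gene of 12, Acss2, an acetyl-CoA synthetase, had URI(+/D)Hep 1 and 4 as its lowest URI(+/D)Hep livers. Of the 21 sterol transport and LXR genes 6 did, against 14 of 18 synthesis enzymes and 19.2% of all genes. These differences were not tested. Among the 6, Scp2 had the full order of the enzymes. It had 476, 1385, 1611, 606 and 1479 normalized reads in URI(+/D)Hep 1 to 5, against 1029, 1001 and 382 in URI(+/+)Hep 1 to 3.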

How the data were processed

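RNA of 8 livers was made into 3′ mRNA libraries with oligo-dT priming and a random second-strand primer that carries a molecular identifier of 6 nt, the sense strand being kept, per the labels' protocols. GRCm39 and the tools bcl2fastq, featureCounts and DESeq2 appear in the submitters' processing notes. No aligner, annotation or use of the identifiers is stated there. The authors' deposited values are normalized signal, each count scaled by its library's size factor. Dividing by the smallest value above 0 gave whole reads, within 1e-06, for 100% of values. In URI(+/D)Hep 5 that value, 0.989, is close to 1 and less certain, so count tests were repeated without that library.

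limma 3.58.1 (R 4.3.3) was fitted to log2(value + 1), with a mean-variance trend, over 13704 genes with at least 10 in at least 3 libraries, and p-values were adjusted by Benjamini-Hochberg. Fold changes on that scale understate low genes. edgeR 4.0.16 and DESeq2 1.42.0 were run on the recovered reads. The floor of 3 reads is 2.65 to 3.60 normalized reads. The main limma fit, edgeR and DESeq2 were also run on simulated libraries in which genes varied independently, unlike the shared orders seen here. The fits with a block, a covariate or libraries left out were not. The members and lists were chosen with earlier results of these data known. Up to 4 genes per role are given liver by liver, those with non-overlapping groups first and then those with the smallest limma p. Hmgcs1, Msmo1, Ebp and Erg28 were added after their values were seen, as was Npc1l1. Alternatives changed the pseudocount, filter, scaling, trend, test, block, covariate and the libraries included.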

Additional observations from a re-analysis of the deposited data

Results flagged for a closer look

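Npc1l1, a sterol importer, was singled out after its values were seen. It stood at 95.9 normalized reads in URI(+/D)Hep 5, at 0.926 in URI(+/D)Hep 2 and at 0 in the other 3 URI(+/D)Hep livers, and at 0 in all 3 URI(+/+)Hep livers. The gap of URI(+/D)Hep 5 to its neighbour took 0.99 of the range of the URI(+/D)Hep group, above the 0.71 at which a sample is set apart. In the same liver Epcam, Krt19 and Cftr of the cholangiocyte list stood at 525, 65.3 and 283. They reached at most 29.96, 5.80 and 33.8 in the other URI(+/D)Hep livers and 28.8, 5.91 and 17.7 in URI(+/+)Hep livers. Their gaps took 0.957, 0.911 and 0.921 of the range. The 6 cholangiocyte markers summed to 1169 in URI(+/D)Hep 5 and to 233 to 375 in the other URI(+/D)Hep livers, against 254 to 1659 in URI(+/+)Hep livers. Sox9 and Spp1 of that list did not set URI(+/D)Hep 5 apart. Sox9 had 131, 134, 175, 108 and 152 normalized reads in URI(+/D)Hep 1 to 5, against 1141, 631 and 121 in URI(+/+)Hep 1 to 3. Spp1 had 112, 144, 122, 90.9 and 122 normalized reads in URI(+/D)Hep 1 to 5, against 458, 377 and 97.6 in URI(+/+)Hep 1 to 3. Both stood higher in URI(+/+)Hep 1 and 2 than in any URI(+/D)Hep liver and made up most of the control sums there. Which cells gave the reads of Npc1l1, Epcam, Krt19 and Cftr in URI(+/D)Hep 5 was not tested. Their part in the other values of that liver was not tested. Without URI(+/D)Hep 5 the median log2 fold change of the synthesis enzymes was -0.50.

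The sum of 4 Y-linked genes set URI(+/D)Hep 1 apart, at 3.54 normalized reads with a gap of 0.784 of the range. That liver was also the lowest for 14 of the 18 synthesis enzymes, and without it their median log2 fold change was -0.32. Chance would set apart about 1 in 20 groups not picked by their values. Of the 54 groups looked at, Npc1l1 was picked after its values were seen. Of the cholangiocyte markers only Epcam, Krt19 and Cftr were looked at in this way. That rate therefore does not apply to the groups set apart here. None of the 31 genes of the set had a URI(+/D)Hep liver set apart by this measure.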

How the results depend on the processing

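In 22 alternatives (pseudocounts, filters, TMM scaling, no trend, count tests, replicate block, covariate, libraries left out) 14 of the 31 genes kept their direction under every one and 17 reversed under at least 1. The medians of the set and of the synthesis enzymes ranged from -0.55 to -0.17 and from -0.62 to -0.32 without 1 library, and turned to 0.18 and 0.15 in the 5 mixed-transcript livers. No gene of the set was called except Mylip, 1 higher call with DESeq2 (log2 fold change 0.70). Over all genes, higher and lower calls, 0 and 2 as reported, were 236 and 376 with DESeq2, 123 and 255 with DESeq2 on 7 libraries, a comparison added after seeing the data, 0 and 3 with edgeR, 0 and 0 with edgeR on 7 libraries, 1 and 3 with a mean of at least 50, and 1 and 0 without both URI(+/D)Hep 5 and URI(+/+)Hep 1. They were 0 and 0 without the trend, with the Y-linked covariate and in the mixed-transcript livers, and ranged from 0 to 11 and from 0 to 23 without 1 library, the highest without URI(+/+)Hep 3. With the replicate block they were 0 and 0, with medians of -0.32 and -0.51. Whether the numbers pair the samples is not stated. Deviations from the group means had an r of -0.40, -0.04 and -0.27 between same-numbered samples. These values cannot exclude pairing, since samples of unlike number also correlated, as URI(+/D)Hep 4 with URI(+/+)Hep 3 at 0.54.

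In the 5 mixed-transcript livers the log2 fold changes that reversed were 0.19 for Abca1, 0.039 for Acat2, 0.12 for Cyp51, 0.34 for Fdft1, 0.56 for Hmgcs1, 1.36 for Hsd17b7, 0.35 for Insig1, 0.86 for Insig2, 0.48 for Lss, 0.48 for Msmo1, 0.30 for Mvd, 0.18 for Nsdhl, 0.41 for Pmvk, 0.030 for Sqle and 0.21 for Tm7sf2. With the Y-linked covariate they were 0.13 for Fdft1, 0.27 for Hmgcs1, 0.84 for Hsd17b7, 0.13 for Insig1, 0.32 for Insig2, 0.12 for Lss, 0.14 for Msmo1, 0.17 for Mvd, 0.15 for Pmvk and 0.12 for Tm7sf2. Without both URI(+/D)Hep 5 and URI(+/+)Hep 1 they were 0.036 for Abca1, 0.15 for Hsd17b7, 0.12 for Insig2 and 0.070 for Scarb1. Hsd17b7 was 0.10 with edgeR and 0.10 with DESeq2. Without 1 library Hsd17b7 ranged from -0.56 to 0.41, Insig2 from -0.71 to 0.27, Pmvk from -0.60 to 0.0036 and Stard4 from -0.011 to 0.35. The fit of the mixed-transcript livers has 1 control, URI(+/+)Hep 3. For the mean of the synthesis enzymes it was the lowest control, at -0.06, against 0.68 and 0.30 in URI(+/+)Hep 1 and 2. The cause of the reversals was not tested.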
